A study of Homo sapiens with 5 samples.

Results

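The AP-1 and immediate early genes examined here are 10 genes chosen by symbol, namely the FOS family (FOS, FOSB, FOSL1, FOSL2), the JUN family (JUN, JUNB, JUND) and the early response genes EGR1, ATF3 and IER2. All 10 were found among the 30476 genes of the deposited count table. The cells were TOV21G, an established line of ovarian clear cell carcinoma that carries an ARID1A mutation, and its EZH2 inhibitor-resistant (EIR) derivatives. EIR clones were selected in steps of 5, 10, 15 and 20 uM of GSK126, which inhibits the histone methyltransferase EZH2, and were picked from cells growing stably at the last step. Total RNA was sequenced from parental cells without GSK126 (1 library), from EIR clones 3 and 4 without GSK126 (2 libraries) and from the same clones with GSK126 (2 libraries). All groups share the TOV21G background, including the ARID1A mutation, and medium with fetal bovine serum. For the treated cultures, neither how much GSK126 was added nor for how long is given in the sources used here, and the time since the last change of medium is not given either.

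Immediate early genes are transcribed within minutes of a stimulus such as serum, stress or a growth factor, without new protein synthesis, and their mRNAs are short-lived. FOS and JUN proteins pair through a leucine zipper to form AP-1, which binds the TPA-responsive element of its target promoters, and JUN proteins also pair with each other and with ATF proteins such as ATF3. EGR1 is a zinc finger factor, and IER2 is a small nuclear protein of the same early response. The kinase ERK and the serum response factor SRF, which binds CArG boxes, drive much of FOS and EGR1 induction.

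The promoter letters of 4 members are shown because EGR1 and FOS had the lowest ratios to parental cells and because JUNB and IER2, like JUN, were lowest in both libraries of clone 4. Of the 10 members, 9 had a promoter window in RefSeq (GRCh38.p14, 250 bases before to 50 after the start site, with 2 windows for ATF3). FOSL1 had none. Printed are the 200 bases before the start site, 5′ to 3′ on the plus strand, with capitals for every match to TGACG (the core of the cAMP response element CRE, in either orientation), to the EGR element GCGNGGGCG and to the CArG box.
EGR1, chr5:138465279-138465478: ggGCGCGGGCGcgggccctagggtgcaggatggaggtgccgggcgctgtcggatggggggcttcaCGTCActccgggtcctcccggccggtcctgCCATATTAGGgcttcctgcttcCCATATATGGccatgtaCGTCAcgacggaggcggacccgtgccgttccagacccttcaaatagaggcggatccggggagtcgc
FOS, chr14:75278628-75278827: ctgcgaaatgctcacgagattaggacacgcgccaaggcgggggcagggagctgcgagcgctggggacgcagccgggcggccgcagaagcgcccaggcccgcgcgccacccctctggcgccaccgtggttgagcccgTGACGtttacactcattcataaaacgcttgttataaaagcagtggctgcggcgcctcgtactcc
JUNB, chr19:12791286-12791485: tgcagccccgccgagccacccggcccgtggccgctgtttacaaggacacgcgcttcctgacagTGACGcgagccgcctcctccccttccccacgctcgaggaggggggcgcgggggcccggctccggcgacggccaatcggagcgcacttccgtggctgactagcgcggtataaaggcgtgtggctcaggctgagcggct
IER2, chr19:13150211-13150410: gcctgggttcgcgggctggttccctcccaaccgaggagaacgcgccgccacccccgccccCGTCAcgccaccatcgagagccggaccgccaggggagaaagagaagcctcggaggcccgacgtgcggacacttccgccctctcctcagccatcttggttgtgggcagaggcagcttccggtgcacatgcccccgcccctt

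In the EGR1 window the CArG boxes CCATATTAGG and CCATATATGG began 105 and 83 bases before the start site, and an EGR element began 198 bases before it. A CArG box was present in 1 of the 9 members with a window and in 1.29% of all 35116 windows of this length, and an EGR element in 1 member and 9.43% of all windows. Windows reach only 250 bases before the start site, and letters farther upstream were not searched. That FOS had no CArG box in its window does not speak for its whole promoter. TGACG or its complement was found in 8 of the 9 members, against 24.6% of all windows. ATF3 was the exception. The full CRE TGACGTCA, which contains the TGACG match on each strand, occurred in JUND alone among the members (1.85% of all windows), and the TPA-responsive element TGANTCA in FOSL2 alone (7.71%). TATAAA was present in FOS, FOSB, JUNB and ATF3 (11.5% of all windows). Both strands were searched. These matches describe letters in a window and do not show that a factor was bound.

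Total counts per library ranged from 25479238 to 30764963, and 15588 to 16432 genes had at least 10 counts. Of the epithelial and clear cell markers looked up, PAX8 lay between 3083 and 4523 normalized counts, KRT8 between 4419 and 8080 and KRT18 between 11981 and 18326 in the 5 libraries. KRT7 was at 81.6 in the parental library and between 159 and 194 in the EIR libraries and was called higher there (log2 fold change 1.11, SE 0.33, adjusted p 0.0048 in DESeq2, 0.0645 in edgeR). NAPSA was low (2.01 to 49.4), and EPCAM was at 0 and 1.06 in clone 4 against 394 to 492 in the other libraries. Of leukocyte and endothelial markers, PTPRC lay between 2.01 and 14.8 normalized counts, LYZ between 7.05 and 22.2, VWF between 2.01 and 16.9 and CDH5 between 4.07 and 9.26. Normalized counts are counts divided by the DESeq2 size factor of the library (0.945 to 1.08). Parental cells have 1 library, so that all spread in tests against them came from the 4 EIR libraries. These were 2 clones in 2 conditions each and not 4 independent clones, and p-values measure only the spread between these libraries.

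To compare levels between genes, normalized counts were divided by the median length of the annotated transcripts in kilobases. By level per kilobase FOSL2 ranked first in all 5 libraries, at 2861 in the parental library and between 1999.9 and 2322 in those of EIR clones. JUN followed in parental cells at 822, and JUND at 629, IER2 at 412 and JUNB at 309 came next. FOS (184), ATF3 (171) and FOSL1 (99.9) formed a lower tier, while EGR1 (34) and FOSB (3.76) were last but one and last in all 5 libraries. By EIR mean the order was FOSL2, JUN, JUND, FOSL1, JUNB, IER2, ATF3, FOS, EGR1 and FOSB. From JUND (287 to 383) through FOSL1 (235 to 485), JUNB (103 to 289) and IER2 (131 to 258) to ATF3 (92.3 to 162), the range of each gene over the EIR libraries overlapped that of the next, as did those of EGR1 (1.58 to 13.2) and FOSB (1.54 to 3.62). Compared within each library, the order of JUND and FOSL1, of FOSL1 and JUNB and of JUNB and IER2 was not the same in all 4 EIR libraries, while IER2 was above ATF3 and EGR1 above FOSB in each. The ranges of JUN (456 to 716) and JUND, of ATF3 and FOS (38.8 to 85.7), and of FOS and EGR1 did not overlap. JUN and FOSL1 are not neighbours in this order, but in treated clone 4 FOSL1 (485) was above JUN (456). Using the longest transcript in place of the median length, FOSL2, JUN, JUND, FOS, EGR1 and FOSB kept their ranks in parental cells. By EIR mean FOSL1 and JUND then changed places, and the other members kept their ranks.

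**Figure D1:**
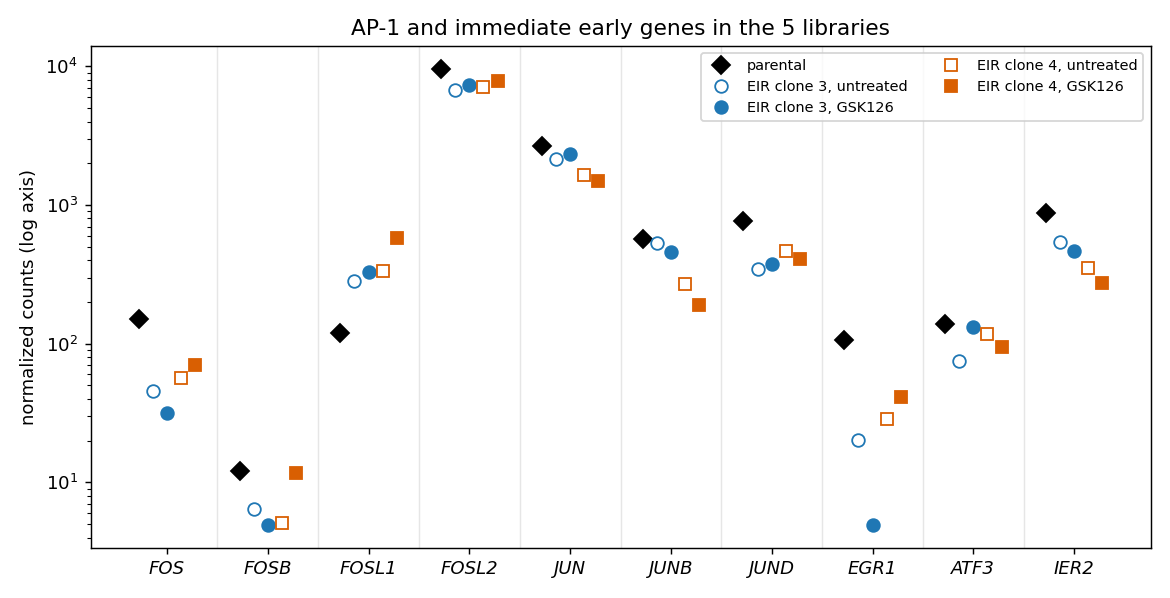
Normalized counts (log axis) of the 10 members in each library. Black diamonds are parental cells, circles clone 3 and squares clone 4, open without and filled with GSK126. Each symbol is 1 library. FOSL1 is the gene with all EIR libraries above the parental library (282 to 582 against 119.9).

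The first comparison asked how the members differed between EIR and parental cells. FOSL1 rose, while FOS, FOSL2, JUND and IER2 fell with the DESeq2 test, JUN, JUNB, EGR1 and ATF3 did not pass it, and FOSB received no adjusted p at its low counts. Over all genes the test called 12.4% higher and 13.2% lower, against 1 and 4 of the 10 members. Of the 10 members 9 were below the parental library in 4 of 4 EIR libraries, which held for 36.6% of all genes tested, and FOSL1 was above it in 4 of 4, which held for 33.4%. The median log2 fold change of the 10 members was -0.72, against 0.003 over all genes tested. With 1 parental library, how far parental cultures differ among themselves is not known.

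Among the FOS family, whose proteins are the partners of JUN in AP-1, FOS (ENSG00000170345, GRCh37 chromosome 14, 75745529 to 75748933, plus strand) was measured at 150.1 normalized counts in parental cells. It stood at 45.4 in untreated clone 3, 57.0 in untreated clone 4, 31.6 in treated clone 3 and 69.8 in treated clone 4. All EIR values were thus below parental, and clone 3 was below clone 4. The mean of the EIR libraries was 50.9 ± 16.3 (SD, n = 4), a log2 fold change of -1.56 (SE 0.57, adjusted p 0.0275 in DESeq2). The edgeR quasi-likelihood test gave an adjusted p of 0.0801, and 4 of 13 alternative fits called FOS.

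FOSL1 (ENSG00000175592, chromosome 11, 65659520 to 65668044, minus strand), which encodes the FOS-related protein FRA-1, went the other way. It had 119.9 normalized counts in parental cells, 282 and 334 in untreated clones 3 and 4, and 327 and 582 in treated clones 3 and 4. The groups did not overlap, and treated clone 4 stood highest. The EIR mean of 381 ± 136 (SD, n = 4) was 3.18 times the parental value, with a log2 fold change of 1.67 (SE 0.48, adjusted p 0.0038 in DESeq2). The call was made in 11 of 13 alternatives. It was lost in edgeR (adjusted p 0.0852) and in the contrast of untreated EIR libraries alone (DESeq2 log2 fold change 1.36, adjusted p 0.0613).

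FOSL2 (ENSG00000075426, chromosome 2, 28615315 to 28640184, plus strand), which encodes FRA-2, was the most abundant FOS family transcript. It fell from 9611 normalized counts in parental cells to 6718 and 7140.1 in untreated and 7300.3 and 7799 in treated clones 3 and 4. The log2 fold change was -0.41 (SE 0.16, adjusted p 0.0447 in DESeq2), with an adjusted p of 0.117 in edgeR and a call in 3 of 13 alternatives. FOSB (ENSG00000125740, chromosome 19, 45971253 to 45978437, plus strand) was close to the limit of detection, with 12 counts in the parental library and 5 to 11 counts in those of EIR clones. The estimated difference of -0.78 on the log2 scale had an SE of 1.17. FOSB lies within the span of ERCC1 on the opposite strand, which had 940 to 1391 counts, and strand use in the counting is not given in the sources used here.

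Within the family the makeup per kilobase shifted toward FOSL1, with lower shares of FOSL2 and FOS. FOSL2 made up 90.9% of the summed FOS family level in the parental library and between 80.2 and 87.4% in EIR libraries. The share of FOSL1 was 3.17% in the parental library and between 10.3 and 16.7% in EIR libraries. The share of FOS went from 5.85% to between 1.56 and 2.96%. FOS was thus above FOSL1 in parental cells and below it in each EIR library. With the longest transcripts as length the shares of FOS and FOSL1 in parental cells were 4.52% and 4.47%, so that they were close there, while FOSL1 remained above FOS in EIR libraries (13.9 to 22.2% against 1.16 to 2.16%).

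Among the JUN family, JUN (ENSG00000177606, chromosome 1, 59242517 to 59249720, minus strand) was the most abundant. It had 2677 normalized counts in parental cells, 2154 and 1639.8 in untreated and 2331 and 1486 in treated clones 3 and 4. Each EIR value was below parental, but the log2 fold change of -0.49 (SE 0.32, 95% interval -1.11 to 0.13, adjusted p 0.264 in DESeq2) did not pass the test, and none of 13 alternatives called it. JUNB (ENSG00000171223, chromosome 19, 12902300 to 12904129, plus strand) gave 566 normalized counts in the parental library, 529.6 and 269 in untreated and 456 and 189 in treated clones 3 and 4. Only clone 4 was far from parental, and the log2 fold change over both clones was -0.65 (SE 0.58, 95% interval -1.78 to 0.48, adjusted p 0.446 in DESeq2).

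JUND (ENSG00000130522, chromosome 19, 18390504 to 18392432, minus strand), the JUN gene usually described as least dependent on stimulation, had 763 normalized counts in parental cells. It had 348 and 465 in untreated and 378 and 406 in treated clones 3 and 4, a tight group well below parental. The EIR mean was 399 ± 49.8 (SD, n = 4), a log2 fold change of -0.94 (SE 0.26, adjusted p 0.0023 in DESeq2). JUND was the only member that edgeR called in this comparison (adjusted p 0.0438), where 6.73% of all genes were called lower. Its call was made in 9 of 13 alternatives. With the libraries of each clone summed, so that each clone counted once, JUND lost its call (-0.93, adjusted p 0.0874 in DESeq2), as did FOS (0.180), IER2 (0.131) and FOSL2 (0.362), and FOSL1 alone kept it (adjusted p 0.0140).

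Among the early response genes outside AP-1, EGR1 (ENSG00000120738, chromosome 5, 137801168 to 137804992, plus strand) had the lowest ratio. Its normalized counts were 107 in the parental library, 20.4 and 28.5 in untreated and 4.94 and 41.3 in treated clones 3 and 4. The parental value was 4.49 times the EIR mean of 23.8 ± 15.2 (SD, n = 4), and treated clone 3, with 5 counts, stood lowest. At these counts and this spread the log2 fold change of -2.17 (SE 1.03, 95% interval -4.19 to -0.15) had a DESeq2 adjusted p of 0.108, and none of 12 alternatives called it. EGR1 was therefore lower in 4 of 4 libraries without passing the test at this depth.

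IER2 (ENSG00000160888, chromosome 19, 13261225 to 13265725, plus strand) fell from 869 normalized counts in parental cells to 545 and 349.9 in untreated and 464 and 276 in treated clones 3 and 4. The log2 fold change was -1.09 (SE 0.42, adjusted p 0.0396 in DESeq2), and the adjusted p was 0.106 in edgeR. ATF3 (ENSG00000162772, chromosome 1, 212738676 to 212794119, plus strand), a stress-induced partner of JUN proteins, had 139 normalized counts in parental cells, 75.0 and 117 in untreated and 131 and 94.2 in treated clones 3 and 4. All 4 EIR values were below the parental one, treated clone 3 only slightly, with a log2 fold change of -0.41 (SE 0.45, 95% interval -1.31 to 0.48, adjusted p 0.555 in DESeq2).

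The members share a property that went with the ratio to parental cells across all expressed genes. Their transcripts were GC-rich, from 51.1% GC in ATF3 to 69.9% in JUND, and all 10 were above the median of 48.3% over 11377 expressed genes (mean of at least 100 normalized counts). All 10 also had fewer exons (1 to 5) than the median expressed gene (10). Across expressed genes the median of the mean log2 ratio to parental cells was 0.51 below 40% GC, -0.36 between 55 and 60%, -0.47 between 60 and 65% and -0.54 above 65%. Within the members, FOS and FOSL1 were both at 60.1% GC, with mean log2 ratios of -1.61 and 1.61. Of the members 4 (FOSB, JUNB, JUND and IER2) lie on chromosome 19, where 755 expressed genes had a median log2 ratio of -0.27, against -0.08 over all expressed genes. After the GC correction described next, the chromosome 19 median was 0.04 and that of all expressed genes -0.003.

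After correction for transcript GC content, none of the falls passed the test. FOSL1 remained called (log2 fold change 2.06, SE 0.49, DESeq2 adjusted p 3.6e-04), as were 10.2% of all genes in the higher direction. FOS had a corrected log2 fold change of -1.16 (DESeq2 adjusted p 0.159), IER2 of -0.62 (adjusted p 0.279), JUND of -0.42 (adjusted p 0.362) and FOSL2 of -0.09 (adjusted p 0.790). The members below parental in 4 of 4 EIR libraries went from 9 to 4, namely FOS, JUND, EGR1 and IER2, against 31.4% of all genes tested. The median log2 fold change of the 10 members was then -0.33. Whether GC content acts here through library preparation was not tested.

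**Figure D2:**
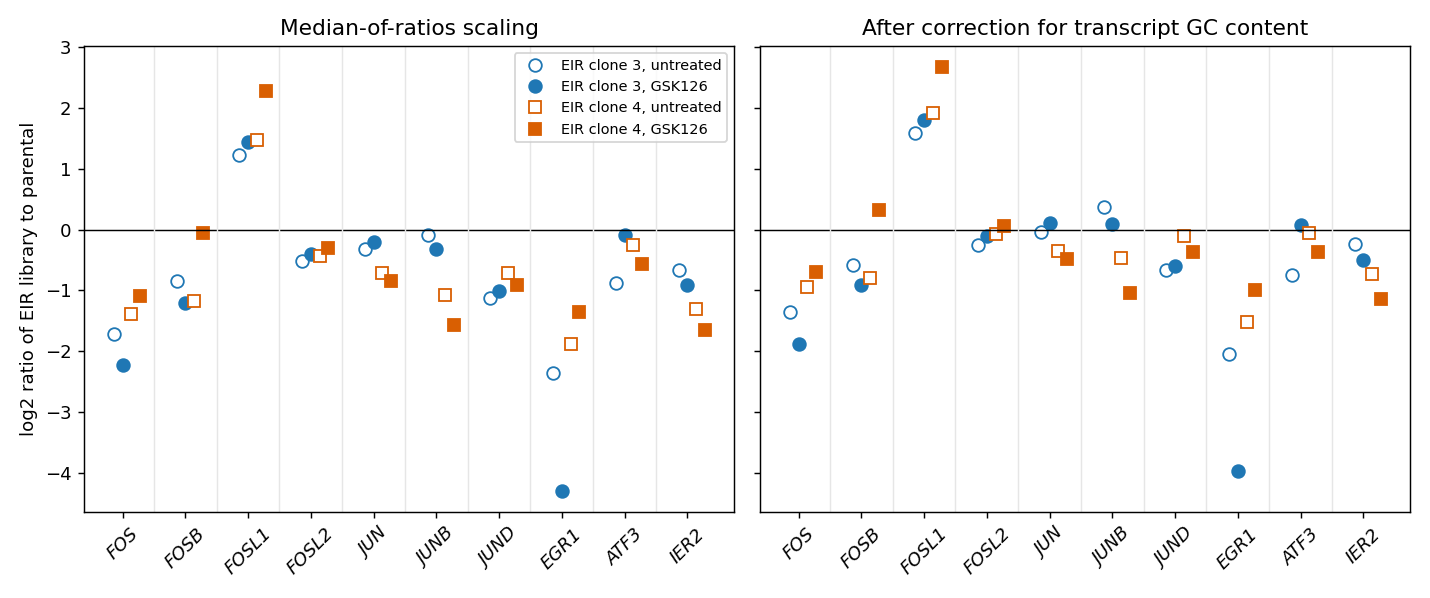
Log2 ratio of each EIR library to the parental library (pseudocount 0.5) for the 10 members, with median-of-ratios scaling on the left and after correction for transcript GC content on the right. Symbols are single libraries. JUNB spans -1.58 to -0.10 on the left and -1.04 to 0.37 on the right, while all 4 FOSL1 values lie above 1 in both panels.

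**Figure D3:**
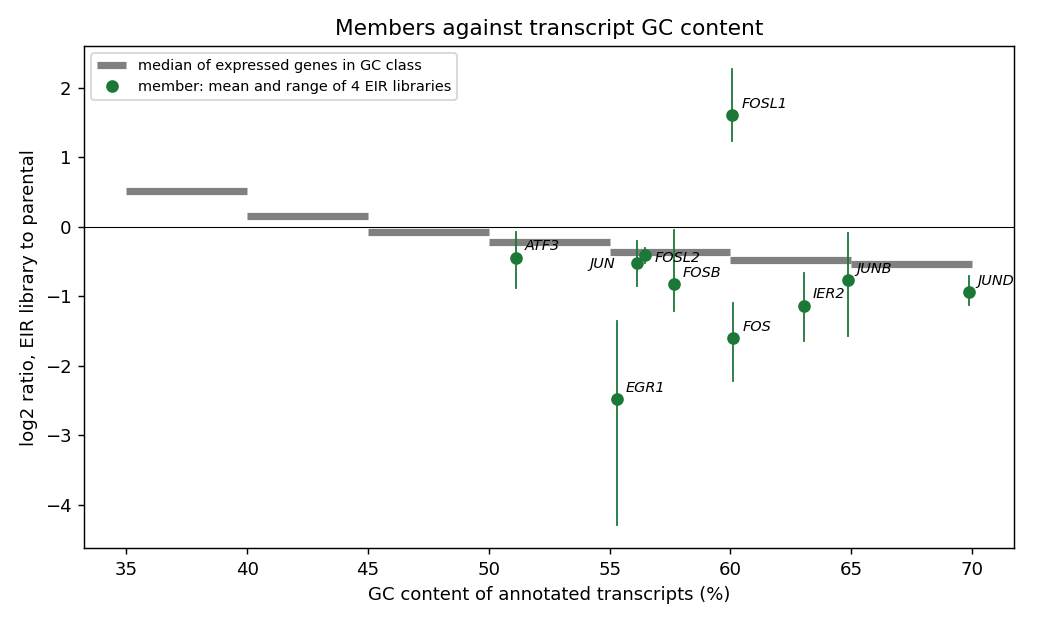
Log2 ratio to parental against the GC content of annotated transcripts. Grey bars are medians of the mean log2 ratio over expressed genes in each GC class, with the lowest class drawn from 35% and the highest to 70%, and green points and lines are the mean and range of a member over the 4 EIR libraries. EGR1 and FOS lie well below the bar of their class and FOSL1 above it. JUND and IER2 have ranges that end below it, and FOSL2, JUN, FOSB, ATF3 and JUNB have ranges that reach it.

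The next comparison asked whether the 2 EIR clones differed from each other. JUNB fell in clone 4 relative to clone 3 (log2 fold change -1.13, SE 0.29, DESeq2 adjusted p 0.0016), from a mean of 493 to 229 normalized counts, and was the only member DESeq2 called. Over all genes 6.52% were called lower and 3.3% higher in clone 4. In edgeR JUNB (adjusted p 0.0046), JUN (adjusted p 0.0382) and IER2 (adjusted p 0.0216) were called lower, against 9.27% of all genes. In DESeq2 JUN had a log2 fold change of -0.53 (SE 0.19, adjusted p 0.0507) and IER2 of -0.70 (SE 0.27, adjusted p 0.0827). With GC correction JUNB kept its call (-1.01, DESeq2 adjusted p 0.0053), as did 7% of all genes in that direction. Without the untreated library of clone 3 the JUNB call was lost (log2 fold change -1.01). That fit left clone 3 with 1 library and had no treatment covariate, so that treatment entered the contrast.

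Both clone 4 libraries lay below both clone 3 libraries for JUN, JUNB and IER2, which was so for 31.4% of all genes tested. Both lay above for FOS, FOSL1, JUND and EGR1, against 29.3% of all genes. The 3 and 4 of 10 members are close to these shares. In the higher direction the log2 fold changes were 0.73 for FOS (SE 0.66, adjusted p 0.698 in DESeq2), 0.53 for FOSL1 (SE 0.29, adjusted p 0.335), 0.26 for JUND (SE 0.28, adjusted p 0.770) and 1.69 for EGR1 (SE 1.01, adjusted p 0.410). Those of FOSL2 (0.09), ATF3 (0.07) and FOSB (0.44) also did not pass. The 2 libraries of a clone are the same clone in 2 conditions, so the test speaks of these clones only.

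JUNB overlaps HOOK2, a gene on the opposite strand whose annotated span (12873817 to 12983554) holds all of JUNB. HOOK2 counts followed those of JUNB closely, with 501 in parental cells, 553 and 310 in untreated and 470 and 213 in treated clones 3 and 4, against 562, 572, 264, 461 and 179 for JUNB. HOOK2 was also lower in clone 4 (log2 fold change -0.88, SE 0.28, DESeq2 adjusted p 0.0239). The library kit was a stranded one per the labels, but whether the counting used strand is not given in the sources used here, and the values of JUNB and HOOK2 are uncertain to that extent. The sum of both genes had a log2 ratio of -0.97 between the means of clone 4 and clone 3.

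The makeup of the JUN family per kilobase followed the clones. JUN made up 46.7% of the summed level in the parental library and between 48.7 and 56.1% in EIR libraries. JUND made up 35.7% in parental cells, 23.2 and 24.4% in untreated and treated clone 3, and 37.1 and 37.4% in untreated and treated clone 4. JUNB made up 17.6% in parental cells, 23.4 and 19.5% in clone 3, and 14.2 and 11.6% in clone 4. The share of JUND in clone 3 was thus below that of parental cells and of clone 4, and JUNB showed the opposite order between clones.

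The last comparison of the members asked whether GSK126 changed them within the EIR clones. No member passed the test (DESeq2 adjusted p 0.9999 for each, and also with the clone number as replicate block, which pairs the treated and untreated library of a clone). The unadjusted p was under 0.05 for 0 members in both fits, and the smallest was 0.0879 for FOSL1 with the block. In edgeR 0 members were also called, with an unadjusted p under 0.05 for 0 members without the block and for 1, FOSL1, with it. Over all genes the test called 0.00335% (1 of 29847), and 0.0134% (4) with the block. The tightest estimates with the block were those of FOSL2, at a log2 fold change of 0.11 (95% interval -0.20 to 0.43), and JUN, at -0.03 (95% interval -0.39 to 0.34). The block interval of FOSL1 was -0.07 to 1.07, that of JUNB -0.93 to 0.19 and that of EGR1 -2.65 to 1.32. The block interval of FOSB (-2.85 to 3.65) included changes of several fold in either direction, and that of EGR1 a fall of several fold.

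Within single clones some ratios exceeded counting error. The spread between cultures and library preparations cannot be estimated from 1 library against 1 and is not in these intervals. FOSL1 was 1.74 times its untreated value in treated clone 4 (exact 95% counting interval 1.52 to 2.01) and 1.16 times in clone 3 (0.989 to 1.36). EGR1 in treated clone 3 was 0.243 of its untreated value (0.0718 to 0.657), whereas in clone 4 the ratio was 1.45 (0.869 to 2.44). ATF3 had a ratio of 1.75 in clone 3 (1.32 to 2.34) and 0.805 in clone 4 (0.603 to 1.07). EGR1 and ATF3 thus each went in opposite directions in the clones.

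JUNB and IER2 were lower with GSK126 in both clones, at ratios of 0.860 and 0.705 for JUNB and of 0.852 and 0.789 for IER2 in clones 3 and 4. Of the 17708 genes tested between clones, 21.1% were lower with GSK126 in both. FOSL1 and FOSL2 were higher in both, FOSL2 at 1.09 in each, against 28.1% of the same 17708 genes. The other 6 members went in opposite directions in the clones. Intervals cover counting error only. They take each count as a separate molecule, although PCR copies cannot be told from separate molecules here.

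**Figure D4:**
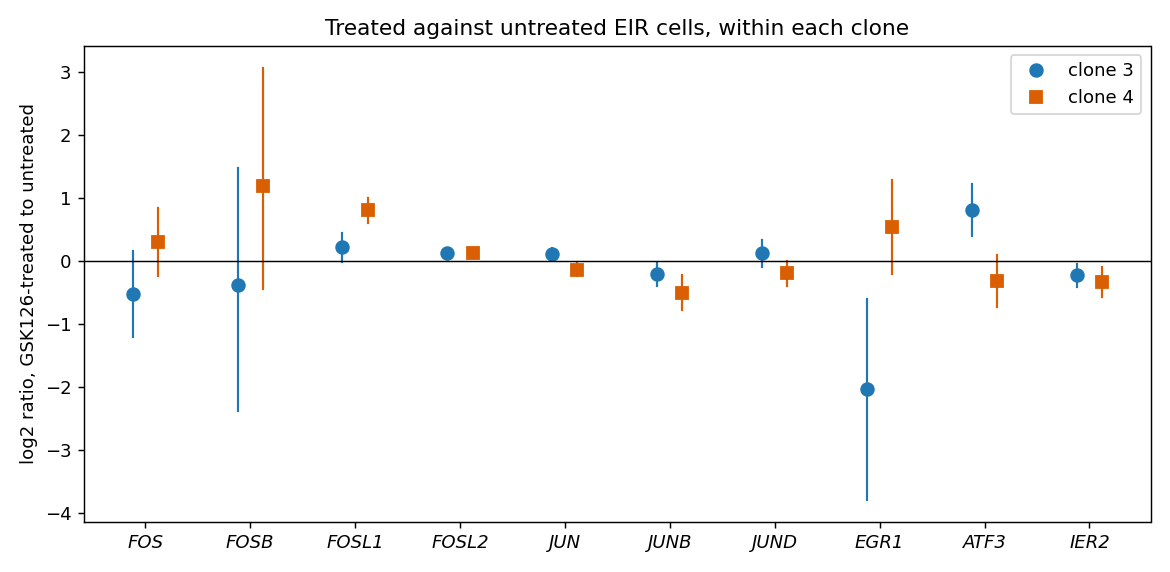
Log2 ratio of the GSK126-treated to the untreated library within clone 3 (circles) and clone 4 (squares) for each member. Lines are exact 95% counting intervals of the ratio and do not include the spread between cultures. EGR1 and ATF3 differ in direction between the clones, and FOSL1 in clone 4 lies above 0.

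Genes around the members were then described by lists, each given as counts of measured genes beside the shares over all genes (12.4% higher and 13.2% lower against parental cells). Of the other immediate early genes, 29 of 34 received an adjusted p, of which 6 rose and 5 fell. CCN2 and CCN1, which encode matricellular proteins, rose with log2 fold changes of 2.46 (SE 0.50, adjusted p 1.6e-05 in DESeq2) and 1.98 (SE 0.21, adjusted p 1.8e-19). NR4A1, an orphan nuclear receptor, fell from 508 to 45 ± 19.6 (SD, n = 4) normalized counts (-3.50, SE 0.62, adjusted p 5.2e-07 in DESeq2). KLF4, a Krüppel-like factor, also fell (-2.04, SE 0.38, adjusted p 2.5e-06 in DESeq2). All 4 genes were called in each of their 13 alternatives, so that early genes outside the 10 members moved in both directions. In edgeR, which called 4.39% of all genes higher and 6.73% lower, 4 of this list rose and 4 fell.

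Of the upstream kinases and SRF factors, 2 of 20 rose and 3 fell. MAPK3, which encodes ERK1, fell (log2 fold change -1.39, SE 0.26, DESeq2 adjusted p 2.5e-06), as did RPS6KA1, a kinase activated by ERK (-1.30, SE 0.31, adjusted p 3.7e-04). ELK4, a ternary complex partner of SRF, rose (1.05, SE 0.32, adjusted p 0.0067 in DESeq2), as did RPS6KA3 (0.85, SE 0.32, adjusted p 0.0317). NAB2, a co-repressor of EGR1, fell (-0.93, SE 0.30, adjusted p 0.0099 in DESeq2), and NAB1 did not pass the test. MAPK3 and RPS6KA1 were called in all 13 alternatives, while RPS6KA3 and NAB2 lost their calls after GC correction. In edgeR 0 of the kinases and SRF factors rose and 2 fell, and ELK4 (adjusted p 0.0811), RPS6KA3 (0.127) and NAB2 (0.0620) were not called.

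Of the bZIP genes that can pair with AP-1 proteins, 10 of 14 received an adjusted p, with 2 higher and 2 lower. CREB5 rose (1.40, SE 0.26, adjusted p 2.0e-06 in DESeq2), as did NFE2L2, the antioxidant response factor NRF2 (0.76, SE 0.15, adjusted p 1.3e-05). MAFF, a small MAF protein, fell (-1.26, SE 0.25, adjusted p 1.1e-05 in DESeq2), as did ATF4 of the integrated stress response (-0.62, SE 0.18, adjusted p 0.0058). CREB5, NFE2L2 and MAFF were called in all 13 alternatives, and ATF4 lost its call after GC correction and in edgeR (adjusted p 0.0622), where 2 of the list rose and 1 fell.

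Of 18 textbook AP-1 target genes, 15 received an adjusted p, of which 7 rose and 1 fell, with a median log2 fold change of 0.90 (1.24 after GC correction). MMP1, the interstitial collagenase, rose from 9.06 to 313 ± 203 (SD, n = 4) normalized counts (5.11, SE 0.86, adjusted p 1.3e-07 in DESeq2). SPP1, which encodes osteopontin, rose (1.85, SE 0.36, adjusted p 8.0e-06 in DESeq2), and TIMP1, an inhibitor of such collagenases, fell (-0.77, SE 0.19, adjusted p 6.6e-04). These genes have other regulators besides AP-1, and AP-1 protein or binding was not measured here. TIMP1 lost its call after GC correction (DESeq2 adjusted p 0.162). In edgeR 3 of the list rose and 1 fell.

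Between the clones 7 of 15 genes of the target list were lower in clone 4 and 1 higher, against 6.52% and 3.3% of all genes. Their median log2 fold change was -0.64. CXCL8, the neutrophil chemokine interleukin 8, had 6288 and 7187 normalized counts in untreated and treated clone 3 and 524 and 336 in clone 4 (-4.0, SE 0.21, adjusted p 2.1e-74 in DESeq2). IL6 had 1201 and 978 in clone 3 and 162 and 107 in clone 4 (-3.05, SE 0.25, adjusted p 7.7e-31 in DESeq2). VEGFA, the vascular growth factor, was higher in clone 4 (0.75, SE 0.17, adjusted p 1.6e-04 in DESeq2). Parental cells stood at 182 for CXCL8 and 1642 for IL6. Clone 4 was thus above parental cells for CXCL8 and below them for IL6 and JUNB. JUNB and these cytokine genes were all lower in clone 4 than in clone 3, though with 2 clones no relation between them could be tested.

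Among the other early genes, 7 of 30 were lower and 2 higher in clone 4. KLF6 (-1.35, SE 0.20, adjusted p 2.7e-09 in DESeq2) and SOCS3, an inhibitor of cytokine signalling (-1.28, SE 0.34, adjusted p 0.0030), were lower. CCN2 (0.88, SE 0.24, adjusted p 0.0043 in DESeq2) and IER5L (0.72, SE 0.18, adjusted p 0.0011) were higher. Of the bZIP partners 1 of 10 was higher, JDP2, which encodes a repressor that pairs with JUN proteins (1.00, SE 0.27, adjusted p 0.0030 in DESeq2). Of the kinases 2 of 20 were higher, RPS6KA5 (0.66, SE 0.22, adjusted p 0.0325 in DESeq2) and RPS6KA3 (0.47, SE 0.16, adjusted p 0.0447). None of the genes in these lists was called between treated and untreated EIR cells.

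Heat shock genes, which respond to handling stress of cells, were listed because early genes do so too. Of 11 genes 3 rose and 2 fell against parental cells. HSP90AA1 rose (1.37, SE 0.20, adjusted p 3.4e-10 in DESeq2), as did HSPH1 (0.90, SE 0.18, adjusted p 8.9e-06), while HSPA1B (-0.83, SE 0.25, adjusted p 0.0050 in DESeq2) and DNAJB1 (-0.49, SE 0.19, adjusted p 0.0383) fell. HSPA1B shares reads with its near-identical copy HSPA1A and is uncertain, and neither fall passed the test after GC correction or in edgeR, where 2 of the list rose and 0 fell. The summed heat shock level ranged from 249081 to 291861 normalized counts in 3 EIR libraries and was 233573 in treated clone 4, against 179340 in parental cells. HSPA8 was its largest term, with 98095.5 of the parental counts and between 115684 and 146044 per EIR library. HSPA8 did not pass the test (adjusted p 0.111 in DESeq2). HSP90AA1 gave 23350.5 of the parental counts and between 54052 and 69073 per EIR library. HSPA1B (6850.9 in the parental library) and DNAJB1 (2588.5) weighed little in the sum, which therefore does not reflect their falls. The part of the heat shock level in the differences of the members was not tested.

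**Figure D5:**
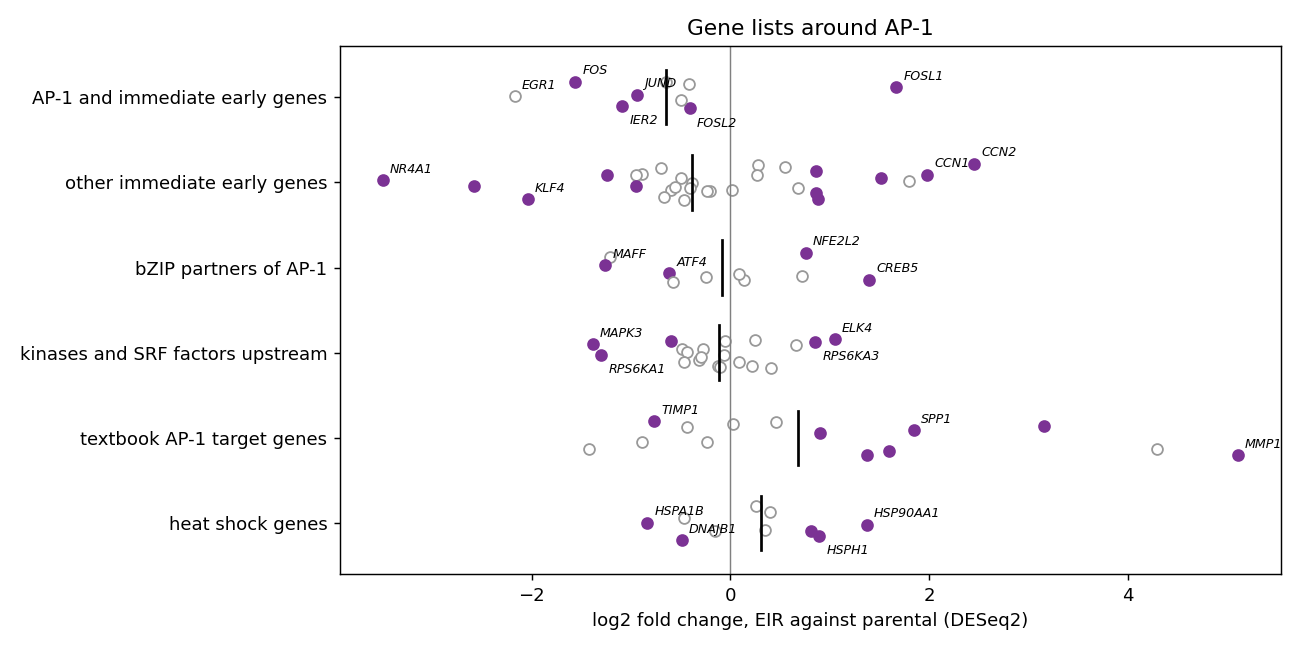
DESeq2 log2 fold change of EIR against parental cells for genes of each list with an adjusted p. Filled points passed the test, open points did not, and black bars are medians of the plotted genes. Genes with at most 3 counts in the parental library or in every EIR library are left out (1 textbook target and 1 heat shock gene). Names mark EGR1, the called members and the genes described in the text.

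By the 4 log2 ratios to parental cells, the expressed genes most like FOS were NHSL1, FAM149A and PTPRH, with root mean square differences of 0.196, 0.221 and 0.230 among 11370 genes. Those most like JUN were ARL6IP5 (0.0456), KCTD7 (0.0474) and GLA (0.0501). For EGR1 the nearest were PNMA8A (0.680), PDLIM1 (0.774) and CPS1 (0.774), which were much farther from it than the nearest genes of JUN were from JUN. EGR1 had only 5 to 39 counts in EIR libraries and JUN 1405 to 2359, so counting error is larger in the ratios of EGR1. Its part in these distances was not tested. Likeness over 4 libraries of 2 clones is a description of these libraries.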

How the data were processed

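RNA-seq of total RNA was analysed in the 5 TOV21G libraries. The authors aligned paired-end reads to hg19 with bowtie2 and estimated counts with RSEM on an Ensembl annotation. The deposited values are these expected counts, all whole numbers (0 were not whole), and were used as they stood. RSEM divides reads between overlapping genes by estimation, and a version is given differently in the sources. Symbols, GRCh37 coordinates, length and GC content came from GENCODE release 44 (29203 of 30476 identifiers matched, 95.8%).

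The members and lists were chosen with earlier results of these data known. Other genes named are, per list and comparison, up to 2 with the largest rise and 2 with the largest fall among called genes that averaged 100 or more normalized counts and changed the same way throughout, and the 3 nearest patterns of FOS, JUN and EGR1.

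R 4.3.3 was used with DESeq2 1.42.0 for the main tests (Wald, two-sided, adjusted p under 0.05 over all genes) and edgeR 4.0.16 (quasi-likelihood) as an alternative. The comparison of clones had treatment as covariate. GC correction used factors from 20 bins of transcript GC content. Clone numbers pair treated with untreated libraries, being the same clone. Deviations from the group means correlated at 0.862 across 11564 genes. A few results for marker genes are not reported here.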

Additional observations from a re-analysis of the deposited data

Results flagged for a closer look

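The GSK126-treated and untreated libraries differed in opposite directions in clones 3 and 4 for 6 members, with 1 ratio per clone, and this difference between the clones was not tested. Opposite directions were about as frequent over the 17708 genes tested between clones, of which 21.1% were lower in both clones and 28.1% higher in both. The log2 ratios (pseudocount 0.5) in clones 3 and 4 were -1.94 and 0.53 for EGR1, 0.81 and -0.31 for ATF3, and -0.51 and 0.29 for FOS. They were 0.11 and -0.14 for JUN, 0.12 and -0.19 for JUND, and -0.36 and 1.12 for FOSB. For JUN both ratios exceeded counting error, for EGR1 and ATF3 only that of clone 3 did, and for FOS, FOSB and JUND neither did. EGR1 rested on 5 counts in treated clone 3 and 22 in untreated clone 3, and FOSB on 5 to 11 counts.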

How the results depend on the processing

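In the comparison of EIR with parental cells, DESeq2 called 4157 genes and 5 members. Alternatives gave 2024 genes and 1 member in edgeR, 1914 and 1 (FOSL1) with the libraries of each clone summed, 1998 and 0 for untreated and 2017 and 1 for treated EIR libraries alone (3 members at an unadjusted p under 0.05 in each), and 2115 and 3 with an absolute log2 fold change of at least 1. Scaling to total counts called 2 members and GC correction 1, and leaving out each EIR library in turn left 2 to 5. In that last setting FOSL1 and JUND were called each time, FOS lost its call without either untreated library or without treated clone 3 (DESeq2 adjusted p 0.0685 to 0.106), FOSL2 in the same 3 settings (0.169 to 0.187), and IER2 without untreated clone 4 or treated clone 3 (0.0969 and 0.0617). At 5 to 12 counts for FOSB and 5 to 106 for EGR1, depth limits what could be detected. No member changed direction in the 128 values of this comparison, of which 33 lost a call. Only the 5 called members could lose one. Of 13 alternatives each, FOS kept its call in 4, FOSL1 in 11, FOSL2 in 3, JUND in 9 and IER2 in 5.

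Between treated and untreated EIR cells DESeq2 called 1 gene and no member. The replicate block by clone gave 4 genes, the block with GC correction 8, edgeR 0 (86 at an unadjusted p under 0.05), and leaving out each library in turn 1 to 25, again with 0 members called in each. The block changed no member's call. On the log2 scale JUN was at 0.0583 with total count scaling, 0.0050 when every library had to hold 10 counts, 0.0028 when 2 libraries had to, 0.0229 with GC correction and 0.0019 with the block and GC correction. With total count scaling FOS was at 0.0736, JUND at 0.0199 and EGR1 at 0.0268. Leaving out each library in turn left an arm with 1 library, assumed to vary like the others, and put the difference between clones into the contrast. Values then ran for FOS from -0.70 to 0.42, JUN from -0.38 to 0.29, JUND from -0.25 to 0.15, EGR1 from -2.31 to 0.73, JUNB from -1.11 to 0.27, ATF3 from -0.054 to 0.57, IER2 from -0.73 to 0.082 and FOSB from -0.24 to 0.98.

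Between clones DESeq2 called 1738 genes and 1 member. edgeR and the fit without treatment as covariate called 3 members. TMM factors, total count scaling and at least 10 counts in every library called 2. Leaving out each library in turn gave 831 to 2800 genes and 0 to 4 members, with ATF3 between -0.33 and 0.46 and FOSB between -0.18 and 1.01 on the log2 scale. The largest number of members, which included FOSL1 (adjusted p 0.0091), came without untreated clone 4. The median over members of the mean log2 ratio to parental cells was -0.79 with a pseudocount of 0.5 and -0.65 with 5. The causes of these changes were not tested.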
